A study of Mus musculus with 6 samples.

Results

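The 3 teneurin genes *Tenm2*, *Tenm3* and *Tenm4* were examined in ATAC-seq peak lists of adult neural stem cell (NSC) cultures. ATAC-seq uses a transposase to cut and tag open DNA, and a peak is a stretch where the tagged fragments pile up over the local background. Every peak that overlapped a teneurin gene body or the 50 kb on either side of it was taken, which gave 68 to 106 peaks per library and 134 merged regions of 120143 over the whole genome. The genes are 3 of 21938 protein-coding genes on the assembled chromosomes. They were chosen by their peaks in these same lists, among them a strong region of *Tenm4* found only in differentiating cultures, so contrasts between the states and counts of peaks at these genes are given as a description, with no test.

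All libraries came from cultures of the subependymal zone of C57BL/6J mice of 10 weeks in which the *Sox2* enhancer *Srr2* had been removed with CRISPR-Cas9 (Srr2del/del). Proliferating cultures (PROLIF) were taken after 2 days in vitro (DIV), and early differentiating cultures (DIFF) after 2 DIV and 1 further day without mitogens. By the paper's methods, cells were plated on Matrigel, with FGF in the PROLIF medium and 2% serum (FBS) in the DIFF medium. Mitogen removal and serum therefore cannot be told apart in the contrast of the states. Each state had 3 libraries, with the replicate numbers 1, 2 and 4. Both states share the deletion, and its own effect is outside the comparison, since cultures with intact *Srr2* were not analysed here. The lists held 60006 to 88039 peaks. The pileup of the background, worked back from the called peaks, lay between 2.85 and 3.63 reads in 5 libraries and at 6.01 in DIFF replicate 4. It rises with sequencing depth but is not a read total. A peak within 3 kb of a start was present in all 6 libraries for 6 of 6 neural stem and progenitor markers and 3 of 4 neuronal markers. This held for 1 of 4 oligodendrocyte markers (*Mbp*), 1 of 4 microglial markers (*Csf1r*) and 0 of 4 endothelial markers. Such a peak was called in 5 libraries at the microglial markers *Aif1* and *Tmem119* and at the neuronal marker *Rbfox3*, in 3 at the endothelial marker *Pecam1* and in 1 at the oligodendrocyte marker *Mog*, and no library had such a peak at *Mag*, *Sox10*, *Cx3cr1*, *Cldn5*, *Cdh5* or *Tek*. In bulk cultures, fewer cells with an open region and less opening per cell cannot be told apart.

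Teneurins are large transmembrane proteins that sit in the membranes of neurons and their precursors and bind partners on neighbouring cells. Their best known partners are the latrophilins, adhesion receptors that also bind FLRT proteins, and these contacts serve axon guidance and the matching of synaptic partners. *Tenm2* encodes a latrophilin ligand of synapses, *Tenm3* is known for the wiring of visual and hippocampal circuits, and *Tenm4* is known for its need in oligodendrocyte differentiation and myelination. Each gene is long and has several alternative starts spread far along the gene, so that an open region inside the gene may lie at an internal start, in an exon or in an intron.

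On GRCm38 (mm10), *Tenm2* (ENSMUSG00000049336.16) lies on the minus strand at chr11:36006656-37235964, *Tenm3* (ENSMUSG00000031561.16) on the minus strand at chr8:48227682-48843951 and *Tenm4* (ENSMUSG00000048078.16) on the plus strand at chr7:96171246-96911093. The windows of 1.33, 0.716 and 0.840 Mb held 44, 32 and 58 regions. Positions below are also given as the distance of a region's summit from the first annotated start of its gene in the direction of transcription, so that the region "*Tenm4* +334 kb" lies 334 kb into the gene. The strength of a peak is given as the percentile of its −log10 p within its own list (100 is the strongest peak of that library), and as its fold enrichment over the local background. Introns and exons are numbered in the longest coding transcript of the gene that covers the summit.

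The sequences that carry the findings are the start regions with and without peaks and the regions found in one state only. The following windows run from 250 bases before to 50 bases after a start, in the direction of transcription, with every CG dinucleotide in capitals. The pairs from *Tenm2* and *Tenm3* set the most upstream start, which had a peak in every library, against the next start, which had none, and the last is the internal start of *Tenm4* with the strongest peaks.
Tenm2 first start, chr11:37235915-37236214, minus strand: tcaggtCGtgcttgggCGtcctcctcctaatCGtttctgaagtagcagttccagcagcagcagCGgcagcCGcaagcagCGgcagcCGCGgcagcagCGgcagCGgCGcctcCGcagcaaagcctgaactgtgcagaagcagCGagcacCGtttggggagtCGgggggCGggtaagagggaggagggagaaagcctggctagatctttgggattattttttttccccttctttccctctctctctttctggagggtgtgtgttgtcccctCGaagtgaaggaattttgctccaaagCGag
Tenm2 second start, chr11:36944117-36944416, minus strand: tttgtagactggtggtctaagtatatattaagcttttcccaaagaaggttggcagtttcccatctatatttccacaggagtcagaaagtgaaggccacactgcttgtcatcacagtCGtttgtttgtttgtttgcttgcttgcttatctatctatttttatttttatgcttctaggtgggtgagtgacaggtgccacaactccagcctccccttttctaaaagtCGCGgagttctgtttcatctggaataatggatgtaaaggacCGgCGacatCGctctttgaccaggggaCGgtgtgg
Tenm3 first start, chr8:48843902-48844201, minus strand: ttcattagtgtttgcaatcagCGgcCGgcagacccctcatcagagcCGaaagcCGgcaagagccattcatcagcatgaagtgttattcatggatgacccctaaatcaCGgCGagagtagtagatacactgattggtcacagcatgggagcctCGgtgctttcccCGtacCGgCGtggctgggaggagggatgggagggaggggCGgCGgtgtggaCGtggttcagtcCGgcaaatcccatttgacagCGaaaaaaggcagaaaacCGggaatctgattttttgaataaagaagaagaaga
Tenm3 second start, chr8:48674641-48674940, minus strand: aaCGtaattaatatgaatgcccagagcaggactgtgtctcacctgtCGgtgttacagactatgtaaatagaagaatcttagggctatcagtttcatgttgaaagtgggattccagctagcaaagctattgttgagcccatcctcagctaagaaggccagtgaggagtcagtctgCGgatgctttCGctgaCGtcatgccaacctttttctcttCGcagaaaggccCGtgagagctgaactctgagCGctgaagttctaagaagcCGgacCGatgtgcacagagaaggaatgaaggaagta
Tenm4 internal start at +625 kb, chr7:96796391-96796690, plus strand: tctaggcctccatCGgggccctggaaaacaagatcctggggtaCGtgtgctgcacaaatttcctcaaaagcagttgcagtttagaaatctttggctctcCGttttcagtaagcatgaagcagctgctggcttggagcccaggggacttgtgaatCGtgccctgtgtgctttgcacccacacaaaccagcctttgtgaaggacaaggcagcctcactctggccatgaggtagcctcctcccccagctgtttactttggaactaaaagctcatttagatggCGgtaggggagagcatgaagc
The first starts held 18 CG in *Tenm2* and 16 in *Tenm3*, against 7 and 10 at the second starts and 5 at the internal *Tenm4* start. The second *Tenm3* start is the one that RefSeq lists for the gene on GRCm38.p6, and the RefSeq promoter of *Tenm2* likewise belongs to its second start.

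The next windows run 100 bases to either side of the summit of 4 regions called throughout one state and never in the other, on the plus strand of GRCm38. They are shown because they are the strongest such regions of *Tenm3* and *Tenm4* and the only one that was PROLIF-only. Capitals mark matches to 6 motifs, searched on both strands.
Tenm4 +334 kb, DIFF-only, chr7:96505629-96505829: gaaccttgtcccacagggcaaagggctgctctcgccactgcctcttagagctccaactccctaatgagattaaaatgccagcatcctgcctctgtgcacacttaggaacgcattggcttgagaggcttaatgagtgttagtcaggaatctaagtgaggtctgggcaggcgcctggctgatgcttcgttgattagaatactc
Tenm4 +698 kb, DIFF-only, chr7:96869424-96869624: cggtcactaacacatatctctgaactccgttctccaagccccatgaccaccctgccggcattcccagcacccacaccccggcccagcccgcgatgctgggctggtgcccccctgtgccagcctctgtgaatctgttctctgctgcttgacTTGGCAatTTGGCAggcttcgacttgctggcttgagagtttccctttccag
Tenm3 +276 kb, DIFF-only, chr8:48568032-48568232: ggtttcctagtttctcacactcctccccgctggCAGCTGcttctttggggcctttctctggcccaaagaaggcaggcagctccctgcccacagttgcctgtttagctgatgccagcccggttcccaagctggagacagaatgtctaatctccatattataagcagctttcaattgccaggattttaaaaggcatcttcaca
Tenm4 +243 kb, PROLIF-only, chr7:96413913-96414113: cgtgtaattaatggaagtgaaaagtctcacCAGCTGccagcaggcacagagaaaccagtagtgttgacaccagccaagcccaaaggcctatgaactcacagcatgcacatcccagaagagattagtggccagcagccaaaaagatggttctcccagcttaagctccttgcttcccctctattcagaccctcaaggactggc
The motif searched for AP-1 was TGACTCA, the motif for NFI was TTGGCA, and that for TEAD was ACATTCCA. The E-box was searched in the form CAGCTG and, as a motif of its own, in the form CAGATG. A SOX motif was counted where the window held ACAATG, or else where it held ACAAAG. The *Tenm4* +334 kb window held none of them. The *Tenm4* +698 kb window held the NFI letters in both places marked, and the *Tenm3* +276 kb and *Tenm4* +243 kb windows each held 1 CAGCTG. These matches are a description of the letters and not of binding.

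The teneurin starts that were open were open in both states. The annotated transcripts of the 3 genes begin at 16 clusters of starts (starts joined within 1 kb), and 9 of the 16 (56.2%) had a peak within 3 kb in all 6 libraries, 6 had none in any library and 1 had a peak in 5 libraries. Over all protein-coding genes, 19431 of 48607 clusters (40.0%) had a peak in all 6 libraries. The observed over expected ratio of CG dinucleotides had a median of 0.564 at the 9 clusters and 0.353 at the 6 without a peak, beside 0.630 and 0.202 over all genes. No start site region of the 3 genes was DIFF-only or PROLIF-only.

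At *Tenm2*, the most upstream start carried a region at chr11:37235604-37237507. Its percentiles were 83.9, 79.6 and 72.1 in PROLIF replicates 1, 2 and 4 and 75.6, 70.3 and 78.9 in DIFF, and its fold enrichment ranged from 7.36 to 9.64. The states overlapped. The start at +558 kb, in intron 4, carried the region chr11:36677467-36678299, with percentiles of 69.4, 76.7 and 64.6 in PROLIF and 73.2, 65.9 and 74.4 in DIFF. No library had a peak within 3 kb of the starts at +292, +741 or +804 kb, the first of which begins 2 coding transcripts. Just past that limit, 3052 bp from the +804 kb start, a region had peaks in 5 libraries, with a highest percentile of 60.8.

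At *Tenm3*, the most upstream start carried the region chr8:48842687-48844219, which also covers a start of Gm19744. Its percentiles were 84.1, 84.8 and 85.5 in PROLIF and 88.5, 89.9 and 89.9 in DIFF. The DIFF libraries were all above the PROLIF libraries, by a few percentiles. The internal start at +288 kb, which begins 4 coding transcripts, carried the strongest start region of the gene, chr8:48554867-48556185, with percentiles of 93.6, 91.1 and 86.4 in PROLIF and 93.4, 92.4 and 93.9 in DIFF and a fold enrichment of 9.57 to 13.1. A weak peak at chr8:48552472-48552584, 2729 bp away from that start, was called in DIFF replicate 4 alone. The starts at +169 kb, which begin 2 coding transcripts, and at +544 kb had no peak in any library.

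At *Tenm4*, the strongest start region lay far inside the gene. The start at +625 kb, which begins 2 transcripts without a coding annotation, carried the region chr7:96796051-96797576, whose percentiles were 98.4, 98.0 and 97.9 in PROLIF and 98.4, 98.7 and 98.9 in DIFF, with a fold enrichment of 11.3 to 14.2. The lowest DIFF percentile (98.38, replicate 1) was barely above the highest PROLIF percentile (98.36, replicate 1). At its summit 144 to 235 reads piled up in the PROLIF libraries and 185 to 327 in the DIFF libraries. These pileups are not scaled for depth, and the 327 came from DIFF replicate 4, with its background pileup of 6.01. PROLIF replicate 1 (235) was above DIFF replicates 1 and 2 (185 and 210). The start at +473 kb, in exon 7, carried chr7:96643694-96644524, with percentiles of 88.0, 84.8 and 79.2 in PROLIF and 82.5, 82.6 and 86.1 in DIFF. The clusters at +38 and +40 kb share the region chr7:96209845-96211281, with percentiles of 72.3, 79.1 and 56.4 in PROLIF and 74.7, 71.5 and 76.5 in DIFF. A weak peak in PROLIF replicate 1 alone lay at chr7:96212810-96213140.

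The most upstream *Tenm4* start differed from those of *Tenm2* and *Tenm3*. A peak on the start itself, chr7:96171203-96171380, was called in PROLIF replicate 1 (percentile 5.69) and DIFF replicate 2 (percentile 9.29), and in no other library. The cluster counted as open because of the region chr7:96168675-96169340, whose summit lay at −2.23 kb. Its percentiles were 66.4, 33.7 and 46.8 in PROLIF and 72.0, 72.2 and 78.5 in DIFF, so that every DIFF library was above every PROLIF library. With a distance of 1 kb in place of 3 kb, 8 of 16 clusters had a peak in all 6 libraries. The start at +351 kb had a peak 2926 bp away, chr7:96519099-96519472, in every library but PROLIF replicate 4, and the start at +607 kb had none.

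**Figure D1:**
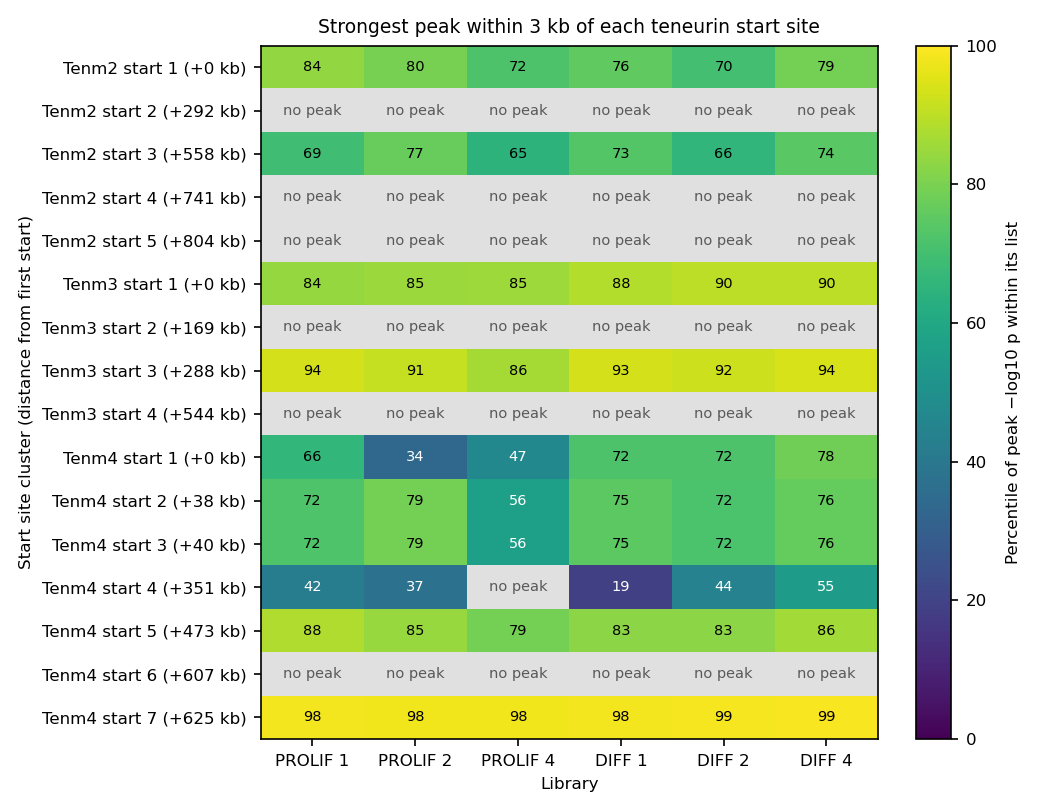
Percentile (colour and number) of the strongest peak within 3 kb of each of 16 teneurin start clusters (rows, with distance from the gene's first start in kb) in each of 6 libraries (columns). Grey cells had no peak; the internal *Tenm4* start at +625 kb stands at 98 or 99 in every library, and 6 rows are grey throughout.

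Away from the starts the genes held many regions, and those found in one state alone were mostly DIFF-only. Of the 134 regions, 12 lay within 3 kb of a teneurin start, 99 had their summit in an intron, 5 in an exon and 18 in the flanks (4 upstream and 14 downstream). In all 6 libraries 52 of the 134 regions (38.8%) had a peak, beside 33.4% of all merged regions. A peak in a single library was found for 26 of the 134 regions, where the share over all merged regions was 29.7%. DIFF-only regions, with a peak in every DIFF library and no PROLIF library, numbered 9 of 134 (6.72%), where 3.47% of all regions were DIFF-only. PROLIF-only regions numbered 1 of 134 (0.746%), where the share was 1.78% of all regions. By gene, the DIFF-only regions were 2 of 44 at *Tenm2*, 3 of 32 at *Tenm3* and 4 of 58 at *Tenm4*. The state contrast chose the genes, so these shares are not evidence of enrichment. The counts moved with the libraries used. DIFF-only regions numbered 14 without PROLIF replicate 1, the longest PROLIF list. PROLIF-only regions numbered 2 without PROLIF replicate 2, PROLIF replicate 4 or DIFF replicate 4, and 3 without DIFF replicate 2. Leaving out a library loosens the rule for every region of the genome. The share of all regions was not worked out for these runs, so they do not show a change particular to these genes.

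**Figure D2:**
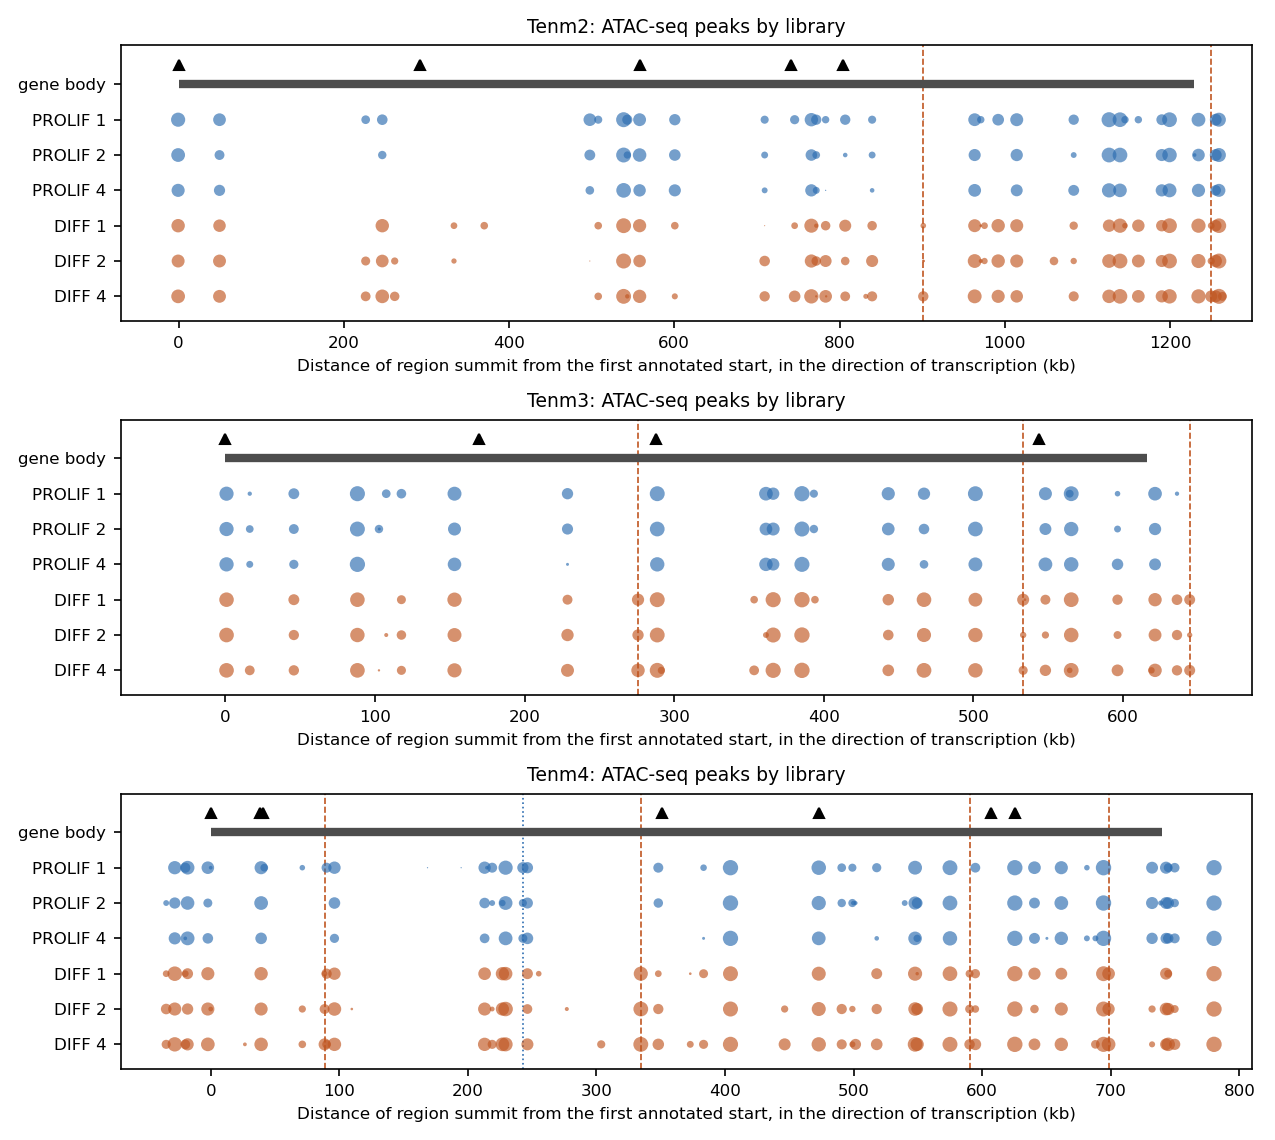
Positions of the peaks at *Tenm2*, *Tenm3* and *Tenm4* (x axis, kb from the first annotated start in the direction of transcription) in the 6 libraries (rows). The area of a circle follows the percentile of the peak, grey bars are gene bodies, triangles are start clusters, dashed lines mark the 9 DIFF-only regions and the dotted line the 1 PROLIF-only region.

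The strongest state-only region was *Tenm4* +334 kb at chr7:96505463-96506278, 816 bp wide, in intron 4 (53671 bp long). Its percentiles were 83.4, 91.2 and 93.0 in DIFF replicates 1, 2 and 4, its fold enrichment was 10.1, 14.4 and 12.7, and 58, 91 and 148 reads piled up at the summit. No PROLIF library had a peak in it. The nearest *Tenm4* start, at +351 kb, lay 16120 bp from the edge of the region. Its peak was among the strongest 20000 of the list in all 3 DIFF libraries, which held for no other of the 9 DIFF-only regions.

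The other DIFF-only regions were weaker. At *Tenm4* +698 kb (chr7:96869309-96869778, intron 26) the DIFF percentiles were 67.7, 63.4 and 79.1 and the fold enrichment 5.03 to 5.76. At *Tenm4* +89 kb (chr7:96259627-96259883, intron 1) they were 13.3, 41.1 and 60.6, and at *Tenm4* +590 kb (chr7:96761239-96761517, intron 13) 26.5, 32.5 and 46.0. DIFF replicate 4, the library with the highest background pileup, had the highest percentile at each of these 3 regions. The intron 1 region lay 10203 bp from Mir708, a microRNA gene inside *Tenm4*.

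At *Tenm3*, the region at +276 kb (chr8:48567939-48569101, intron 2) was 1163 bp wide, with DIFF percentiles of 62.5, 53.7 and 75.5, a fold enrichment of 6.47, 6.57 and 7.92 and 29, 25 and 58 reads at the summit. It lay 11900 bp upstream of the open internal start at +288 kb. The region at +533 kb (chr8:48310514-48310851) had its summit in exon 13, an exon of 147 bp, with percentiles of 60.8, 16.9 and 34.7. The region at +645 kb (chr8:48199184-48199452), past the end of the gene, had 50.2, 11.7 and 50.7.

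At *Tenm2*, both DIFF-only regions were weak. The region at +901 kb (chr11:36334308-36334594, intron 5) had DIFF percentiles of 13.3, 2.80 and 44.8. A weak peak of PROLIF replicate 1 (percentile 0.670) at chr11:36334223-36334306 ended directly before it. The 2 did not overlap and so were not joined, and the DIFF-only call rests on that gap. The region at +1250 kb (chr11:35985873-35986194), in the downstream flank, had 18.9, 21.8 and 59.4. It lay 5346 bp from a start of the neighbouring gene *Wwc1* and 446082 bp from the nearest *Tenm2* start. In both DIFF-only regions, 11 to 37 reads piled up at the summit.

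The single PROLIF-only region, *Tenm4* +243 kb at chr7:96413806-96414632 in intron 2, was of middling strength. Its percentiles were 52.9, 27.3 and 33.8 in PROLIF replicates 1, 2 and 4, its fold enrichment 5.87, 3.95 and 4.29, and 28, 17 and 19 reads piled up at the summit. The nearest *Tenm4* start lay 107766 bp away.

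Regions open in both states also differed in rank, in both directions. Of the 52 regions with a peak in all 6 libraries, 12 (23.1%) had a higher percentile in every DIFF library than in every PROLIF library, where this held for 21.1% of all such regions. In 7 (13.5%) every PROLIF library was higher, beside 11.7% of all such regions. The shares at the teneurin genes were thus near the background in both directions. The examples that follow were singled out after their values were seen. In intron 2 of the gene, *Tenm3* +366 kb (chr8:48477149-48478085) had percentiles of 63.8, 70.5 and 64.4 in PROLIF and 95.9, 94.8 and 96.6 in DIFF, and its fold enrichment was 6.64 to 7.64 against 14.8 to 15.0. At *Tenm3* +467 kb (chr8:48376651-48377398, intron 4) the percentiles were 63.2, 46.8 and 31.0 in PROLIF and 89.3, 83.3 and 91.5 in DIFF. Neither pair of ranges overlapped.

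Within the same gene the reverse was also seen. At *Tenm3* +548 kb (chr8:48295469-48295948, intron 16) the percentiles were 70.9, 59.9 and 79.7 in PROLIF and 41.4, 21.8 and 53.9 in DIFF. At *Tenm4* −18 kb (chr7:96152816-96153363, upstream of the gene) they were 79.1, 77.2 and 80.2 in PROLIF and 50.2, 53.7 and 62.8 in DIFF. At *Tenm2* +1126 kb (chr11:36108936-36110013, intron 14) they were 94.7, 92.1 and 85.5 in PROLIF and 64.8, 78.9 and 76.7 in DIFF. Each of the 3 genes thus held shared regions of both kinds, with 4 higher in DIFF and 1 higher in PROLIF at *Tenm2*, 4 and 3 at *Tenm3*, and 4 and 3 at *Tenm4*.

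**Figure D3:**
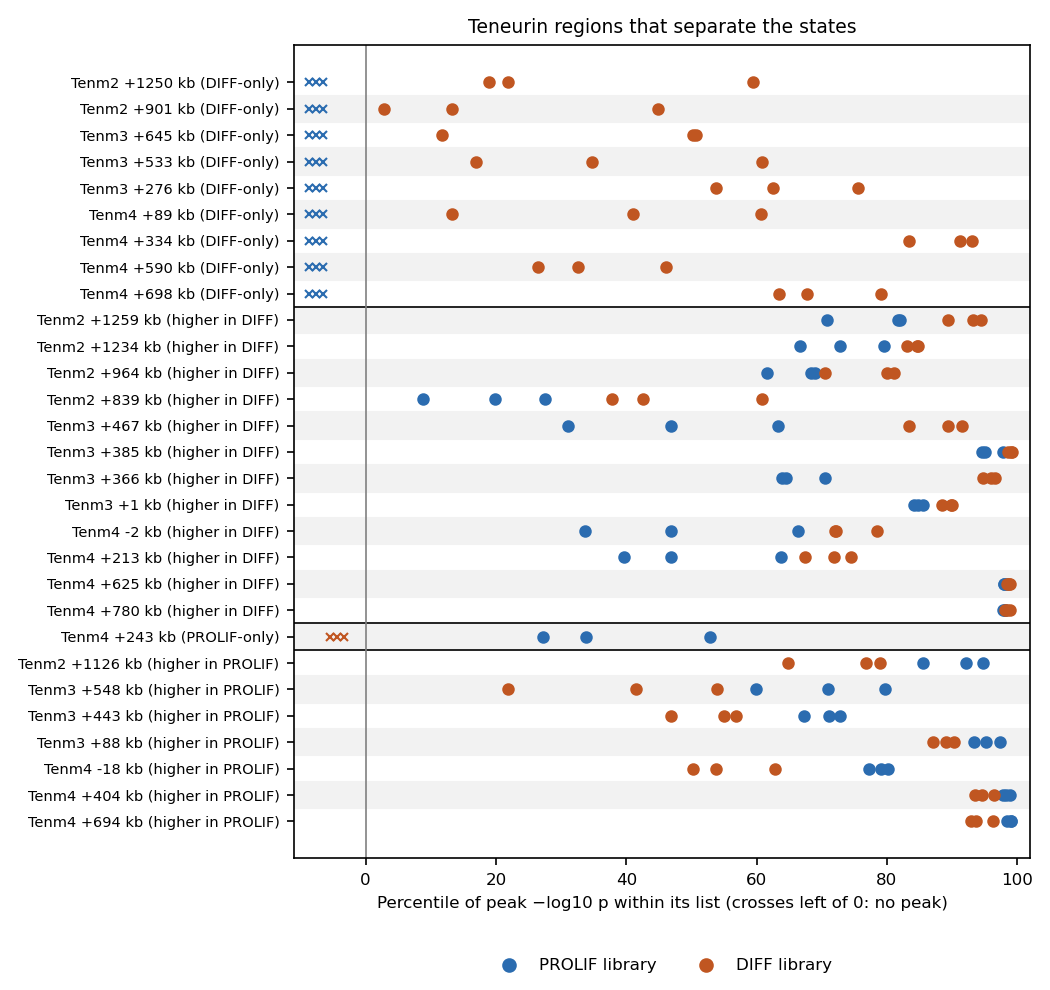
Percentile of each library's peak (x axis) in the 9 DIFF-only regions, the 1 PROLIF-only region and the 19 regions open in all 6 libraries whose states did not overlap (rows, named by gene and kb from its first start). Points are single libraries, crosses left of 0 are libraries with no peak, and *Tenm4* +334 kb is the only DIFF-only row with every DIFF point above 80.

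The regions with the strongest peaks throughout were ranked within each gene by their lowest percentile over the 6 libraries. At *Tenm2* the 3 highest were intronic. The region at +539 kb (chr11:36696949-36697930) ranged from 90.2 to 94.3, the region at +1199 kb (chr11:36036132-36036847) from 81.3 to 91.5 and the region at +1140 kb (chr11:36096105-36097016) from 77.6 to 92.1. At *Tenm3* they were the region at +385 kb (chr8:48457968-48458929, intron 2), which ranged from 94.6 to 99.2, the region at +88 kb (chr8:48755108-48756271, intron 1), from 87.1 to 97.3, and the internal start at +288 kb. At *Tenm4* they were the internal start at +625 kb, the region at +780 kb (chr7:96951089-96952012), from 97.7 to 98.9, and the region at +404 kb (chr7:96575064-96575769, intron 6), from 93.6 to 98.8. Of these 9 regions, 5 had states that did not overlap. *Tenm3* +385 kb and *Tenm4* +625 and +780 kb were higher in DIFF, where this held for 21.1% of all regions in 6 libraries. *Tenm3* +88 kb and *Tenm4* +404 kb were higher in PROLIF (11.7% of all such regions). At *Tenm4* +625 and +780 kb the states nearly touched. The highest PROLIF and lowest DIFF percentiles were 98.36 and 98.38 at +625 kb, and 98.179 and 98.183 at +780 kb. The region at +780 kb covers the start of the neighbouring gene C230038L03Rik and not a teneurin start.

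*Tenm4* had the densest set of peaks of the 3 genes. Its window held 48.8, 40.5 and 34.5 peaks per Mb in PROLIF replicates 1, 2 and 4 and 41.7, 47.6 and 53.6 in DIFF, a mean of 44.5 ± 6.85 (SD, n = 6). *Tenm3* held 30.5 ± 4.36 and *Tenm2* 22.7 ± 4.24 peaks per Mb. The *Tenm4* density was higher than that of *Tenm2* by 21.8 ± 4.08 and than that of *Tenm3* by 14.0 ± 4.06 peaks per Mb, in 6 of 6 libraries each. The difference of *Tenm2* minus *Tenm3* was −9.97 to −5.89 peaks per Mb, below 0 in 6 of 6 libraries. No p-value is given for densities, since peaks of the same lists chose the genes.

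The densities were set against 218 autosomal protein-coding genes of at least 500 kb, teneurins included, with the same flanks, whose median was 21.5 ± 3.98 peaks per Mb (SD over 6 libraries). *Tenm4* was above this median by 22.9 ± 3.21 and *Tenm3* by 8.97 ± 2.37 peaks per Mb, in 6 of 6 libraries each. *Tenm2* differed from it by 1.18 ± 2.42 peaks per Mb and was above it in 3 of 6 libraries, less than the spread between libraries. By mean density *Tenm4* ranked 16, *Tenm3* 47 and *Tenm2* 103 of the 218 genes. Among the strongest 20000 peaks of each list, *Tenm4* exceeded *Tenm3* by 1.09 ± 2.52, *Tenm2* by 7.62 ± 1.69 and the median of long genes by 9.55 ± 2.51 peaks per Mb, so that the lead over *Tenm3* was then within the spread between libraries. Without the flanks, the lead over *Tenm3* was 7.78 ± 5.23 peaks per Mb.

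**Figure D4:**
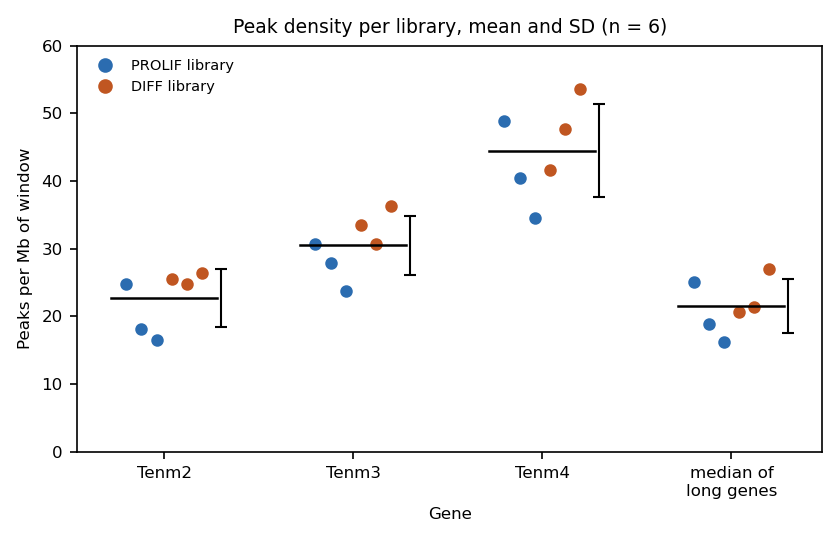
Peaks per Mb of window (y axis) in each library for *Tenm2*, *Tenm3*, *Tenm4* and the median of 218 long genes. Points are single libraries, horizontal lines are means and error bars are SD over 6 libraries; the *Tenm4* points lie between 34.5 and 53.6, each above the other 3 values of its own library.

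The family member *Tenm1* and the teneurin partners were described in the same windows. *Tenm1*, on the X chromosome, had a start peak in all 6 libraries (percentiles 57.5 to 71.3) but 8.32 ± 2.25 peaks per Mb (SD, n = 6), 13 regions and no state-only region. The latrophilin genes *Adgrl1*, *Adgrl2* and *Adgrl3* had a start peak in all 6 libraries, with percentiles of 78.5 to 91.5, 80.4 to 92.3 and 89.6 to 94.9. *Flrt2* and *Flrt3* had strong start peaks in all 6 libraries (94.8 to 97.9 and 92.6 to 98.8), whereas *Flrt1* had weak ones in 3 DIFF libraries and 1 PROLIF library (3.32 to 43.2). The windows of these 7 genes held 120 regions, of which 5 (4.17%, beside 3.47% of all regions) were DIFF-only. They were 2 each in the windows of *Flrt1* and *Flrt2* and 1 in that of *Adgrl3*. PROLIF-only regions numbered 2 (1.67%, beside 1.78%), at *Adgrl2* and *Adgrl3*. The windows of *Flrt1*, *Flrt3* and *Adgrl1* (0.114, 0.121 and 0.142 Mb) were mostly the 50 kb flanks. Regions there can belong to other genes, which was not examined.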

How the data were processed

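ATAC-seq peak lists of 3 PROLIF and 3 DIFF Srr2del/del libraries were analysed, grouped by the labels. The authors clipped adapters (Cutadapt), trimmed reads (Trimmomatic), mapped pairs to GRCm38 (mm10) with Bowtie2 and called narrow peaks per library with MACS2 at a false discovery rate of 0.05. Versions and any transposase shift, which can move peak edges, are not given in the sources used here. The deposited score is 10 times the −log10 q, the deposited fold enrichment is a ratio to the local background, and the deposited −log10 p and q ranked or filtered peaks. Where no peak is listed, the signal missed the caller's threshold, which is not proof of closed chromatin. Read totals were not used, and pileups were worked back from the fold and the Poisson p (whole within 0.05 for at least 99.99% of the peaks used).

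Peaks that overlapped by at least 1 bp in any library were joined into regions over the whole genome. Gene bodies, exons and starts came from GENCODE M21. Sequence and RefSeq promoters came from GRCm38.p6. Motifs and GC were read within 100 bp of the summit of a region's best-ranked peak. Densities are given as differences within each library with their SD. An exact sign-flip test of them was planned and run, but its p-values are not reported, because peaks of the same lists chose the genes. Functions were tested on simulated data. The genes, lists and tests were chosen with earlier results of these data known. Named regions are all state-only regions, all within 3 kb of a teneurin start and, per gene, the 3 regions in all 6 libraries with the highest lowest percentile. Same-numbered libraries were checked as pairs by the correlation of their percentile deviations from the state mean over 39088 autosomal regions found in all libraries (0.0550, 0.153 and 0.0122 for replicates 1, 2 and 4; different numbers −0.113 to 0.0614). The study describes independent replicate cultures, with RNA-seq and ATAC-seq paired. It does not say whether same-numbered PROLIF and DIFF libraries came from the same culture. Work was done in Python 3.11.15 with scipy 1.17.1, pysam 0.24.0, pandas 2.3.3, numpy 2.4.6 and matplotlib 3.10.9.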

Additional observations from a re-analysis of the deposited data

How the results depend on the processing

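Density differences kept their direction with q limits of 0.01 and 0.001, lists cut to 60006 peaks, the strongest 20000 peaks, no flanks and long genes of at least 1 Mb, apart from *Tenm2* minus long genes without flanks (-0.490 peaks per Mb). Sizes moved by over 1.5 times among the strongest 20000 peaks (*Tenm4* minus *Tenm3* 1.09, *Tenm4* minus *Tenm2* 7.62, *Tenm4* minus long genes 9.55, *Tenm2* minus long genes 1.93), without flanks (*Tenm4* minus *Tenm3* 7.78), and for *Tenm2* minus long genes in lists cut to 60006 peaks (2.60) and against genes of at least 1 Mb (4.19). A cut to 20000 peaks removes most of each list, so its differences are not on the scale of the full lists. The cause of the moves was not tested.

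Which regions were DIFF-only depended on the setting more than their number did. Among the strongest 20000 peaks there were 6, of which 1 was among the original 9, with 8 in lists cut to 60006 peaks (6 of the 9), 9 at a q limit of 0.001 (8 of the 9) and 11 where peaks had to cover 50% of a region (5 of the 9). PROLIF-only regions numbered 2 at q limits of 0.01 and 0.001, 3 in lists cut to 60006 peaks and 6 at 50% cover. Regions in all 6 libraries numbered 19 among the strongest 20000 peaks, with 4 start clusters, and 26 at 50% cover. Shares of all regions under these settings were not worked out, so the counts cannot be set against the genome.

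With the replicate block the mean differences are the same by construction (21.8 and 14.0 for *Tenm4* minus *Tenm2* and *Tenm3*, -7.79 for *Tenm2* minus *Tenm3*, 8.97 and 22.9 for *Tenm3* and *Tenm4* minus long genes). Under the block, which asks for a difference in at least 2 of 3 pairs and the reverse in none, DIFF-only regions numbered 22 (16.4%, beside 11.1% of all regions) and PROLIF-only regions 6 (4.48%, beside 6.29%). Leaving out 1 library at a time gave differences of 20.7 to 22.9 (*Tenm4* minus *Tenm2*), 13.1 to 15.1 (*Tenm4* minus *Tenm3*), -8.17 to -7.35 (*Tenm2* minus *Tenm3*), 0.437 to 1.57, 8.20 to 9.63 and 22.2 to 23.9 (*Tenm2*, *Tenm3* and *Tenm4* minus long genes). DIFF-only regions then numbered 9 to 14, PROLIF-only regions 1 to 3, regions in all libraries 52 to 55 and start clusters 9 to 10. For these runs, too, no share of all regions was worked out. Of the 26 regions with a peak in 1 library, 7 had it in DIFF replicate 4, the library with the highest background pileup. The part of depth in the weak state-only regions was not tested.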

Other observations

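The last regions inside lay 34.1 kb past the end of *Tenm2*, 28.2 kb past the end of *Tenm3* and 40.0 kb past the end of *Tenm4*, with highest percentiles of 33.3, 50.7 and 98.9. The next regions outside lay 57.7, 73.3 and 72.7 kb past the ends, with highest percentiles of 81.3, 95.6 and 95.0. Upstream, the nearest regions outside lay 80.2 kb from *Tenm2* and 71.3 kb from *Tenm3*. The 50 kb upstream of *Tenm2* and of *Tenm3* held no region other than the one at the start itself.

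The base composition of the 134 regions was close to that of all regions. The median GC content within 100 bp of the summit was 51.2%, beside 50.2% over all 119719 regions of assembled chromosomes. The share holding a SOX motif was 35.1% beside 29.2%, NFI 23.1% beside 18.3%, CAGCTG 22.4% beside 19.6%, CAGATG 17.9% beside 17.3%, AP-1 5.22% beside 5.76% and TEAD 2.24% beside 1.54%, with no test made. Among the 9 DIFF-only regions at the teneurin genes, 2 held the NFI letters (22.2%, beside 32.8% of all DIFF-only regions). None held AP-1, CAGATG or TEAD, which were in 2.48%, 12.4% and 2.45% of all DIFF-only regions.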
